A study of Canis lupus familiaris with 10 samples.

Results

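The genes of MHC class I presentation and peptide loading were examined in retinas of dogs with primary glaucoma and in healthy canine retinas. The members were the probe sets of the array whose annotation gives 1 gene symbol, and that symbol is DLA-64, DLA88, B2M, TAP1, TAP2, TAPBP, PSMB8, PSMB9, ERAP1 or NLRC5. This rule, which uses no measured value, found 20 of the 42924 probe sets other than array controls, for 10 of 15115 genes. Retinal RNA of 5 dogs per group was hybridized to Affymetrix canine genome arrays, 1 array per dog and without pooling. The glaucoma group held Shiba Inus aged 5 and 14 years, Basset Hounds aged 5 and 7 years and a Dalmatian aged 9 years (ages as in the labels, from which the study's own list of dogs differs for the older Shiba Inu and the Dalmatian), all with closed irido-corneal angles and all given topical drugs that lower the intraocular pressure but no surgery. The healthy group held 5 Beagles aged 4 years without ophthalmic findings, for which no drugs are listed. The glaucomatous eyes had been enucleated from clinic patients to ease pain, whereas the control dogs had been euthanized for other reasons. No breed occurs in both groups. Disease thus cannot be told apart from breed, age, medication or the way the eyes were obtained. The values are intensities after RMA, a procedure that removes background, brings the arrays to a common distribution and merges the probes of a probe set into 1 value, and log2 of these intensities was used.

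MHC class I molecules display short peptides from proteins of the cell's interior on its surface, where cytotoxic T cells and NK cells read them. Peptides are cut by the proteasome, carried into the endoplasmic reticulum by the TAP transporter, trimmed there by ERAP1 and fitted into a heavy chain bound to B2M with the help of tapasin. Interferons raise the transcription of most of these genes, in part through the regulator NLRC5, and the healthy central nervous system is known for low class I levels.

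Of the 20 probe sets, 17 lay above a log2 of 7 in at least 2 retinas and were tested with limma among 18416 probe sets, and 12 of them, from 7 genes, were higher in glaucoma at a Benjamini-Hochberg adjusted p under 0.05. None was lower. Over the tested probe sets 7.58% were higher and 9.4% were lower by the same test. The genes with a higher probe set were the heavy chain genes DLA-64 and DLA88, the light chain gene B2M, the transporter gene TAP1, the tapasin gene TAPBP, the immunoproteasome gene PSMB8 and the trimming enzyme gene ERAP1. In all 12 higher probe sets every glaucomatous retina lay above every healthy retina, a separation seen in that direction in 6.82% of the tested probe sets and in the opposite one in 8.03%. Over all 20 probe sets, tested or not, the median difference of mean log2 intensity was 0.80, against 0.02 over the 42924.

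The 5 tested probe sets that did not pass were all 3 of TAP2, the only one of PSMB9 and 1 of DLA88. The probe set of DLA-64, 1 of TAP1 and 1 of TAPBP were tested only through the glaucoma group, since no healthy retina exceeded the minimum there, so a difference at these 3 follows in part from the filter. Array controls at both ends of a transcript give a measure of RNA integrity, and over 4 pairs of actin and GAPDH control probe sets the log2 ratio of 3' over 5' intensity was 1.45 ± 0.07 in glaucoma and 1.52 ± 0.24 in healthy retinas (SD, n = 5 each, two-sided exact permutation p = 0.611). With that ratio as a covariate the same number of 12 member probe sets was called. With the ratio of 1 actin and 1 GAPDH pair, which was 0.94 ± 0.14 against 1.19 ± 0.22 (SD, n = 5 each, exact permutation p = 0.0556) and was added after seeing the data, 7 were called.

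**Figure D1:**
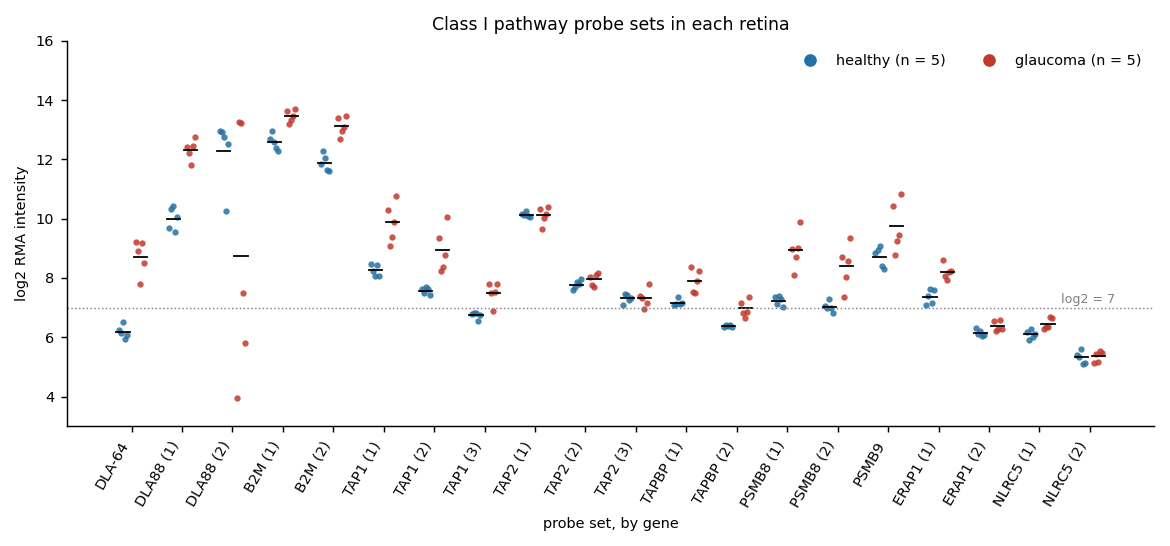
Log2 RMA intensity of each of the 20 probe sets (x axis, numbered within a gene in the order of their mean intensity) in each of the 5 healthy (blue) and 5 glaucomatous (red) retinas, with the group means as black bars and the minimum of the expression filter as a dotted line. The groups do not overlap in DLA-64, the first DLA88 set, B2M, TAP1, TAPBP, PSMB8, the first ERAP1 set and the first NLRC5 set, whereas they do in TAP2 and PSMB9, and the second DLA88 set spreads from 3.94 to 13.27 in glaucoma.

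One glaucomatous retina, from the Shiba Inu aged 5 years, stood apart from the others. Correlations between arrays over the probe sets ranged from 0.849 to 0.967 within the glaucoma group and from 0.953 to 0.982 within the healthy group. The summed intensity of 9 photoreceptor genes on the array was 7815 in this retina, between 34555 and 58472 in the other glaucomatous retinas and between 46694 and 62202 in the healthy retinas. Retinal pigment epithelium genes were also uneven, with a sum of 44819 in this dog. It was 22597 in the Dalmatian, 14694 in the 14-year-old Shiba Inu, and 17607 and 4339 in the Basset Hounds aged 7 and 5 years. Among healthy retinas the sum was 31708 in retina 4 and 1993 to 3961 in the others. Without the 5-year-old Shiba Inu 11 member probe sets were called higher, with differences of 0.62 to 2.41, and the remaining one, of TAPBP, no longer met the filter.

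In the following, values are log2 intensities in the order 5-year-old Shiba Inu, 14-year-old Shiba Inu, 5-year-old Basset Hound, 7-year-old Basset Hound and Dalmatian for glaucoma, and Beagles 1 to 5 for the healthy group. Intensities of different probe sets are not on a common scale, so only differences between groups are compared across probe sets. Probe sets whose name ends in _s_at may hold probes that match more than one transcript, and class I heavy chain genes are close copies of each other, so a signal assigned to one of them may include RNA of another. Whether the dogs, whose breeds differ between the groups, also differ in sequence under the probes was not tested.

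DLA-64 and DLA88 encode class I heavy chains, the latter the main classical class I gene of the dog. The DLA-64 probe set, CfaAffx.1704.1.S1_s_at, gave 9.21, 8.91, 7.80, 9.17 and 8.49 in glaucoma and 6.25, 6.13, 6.52, 5.94 and 6.09 in healthy retinas. The lowest glaucomatous retina, that of the 5-year-old Basset Hound, was above the highest healthy one by more than the whole range of the healthy group. The difference was 2.53 ± 0.25 (SE), a 5.79-fold higher mean intensity (95% interval of the log2 difference 1.98 to 3.08, limma adjusted p = 0.000125). This was the largest positive difference among the 20 probe sets. No healthy retina exceeded the minimum here, so the DLA-64 difference follows in part from the filter.

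The probe set CfaAffx.1697.1.S1_s_at of DLA88 gave 12.40, 12.22, 11.81, 12.46 and 12.74 in glaucoma and 9.67, 10.34, 10.42, 9.55 and 10.04 in healthy retinas. The groups were separated, and the spread within glaucoma was 0.34 (SD, n = 5) against 0.39 in the healthy group (SD, n = 5). Its difference was 2.32 ± 0.21 (SE), a 5.01-fold higher mean (95% interval 1.86 to 2.79, limma adjusted p = 9.16e-05).

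The other DLA88 probe set, Cfa.280.1.S1_at, did not follow this pattern. It gave 3.94, 13.27, 13.23, 7.50 and 5.79 in glaucoma and 12.94, 12.92, 12.75, 10.26 and 12.52 in healthy retinas. The 14-year-old Shiba Inu and the 5-year-old Basset Hound were above every healthy dog, and the remaining glaucomatous retinas were below every healthy dog. The Shiba Inus lay on opposite sides of the healthy range, and so did the Basset Hounds. The difference of means was -3.53 ± 1.70 (SE, 95% interval -7.28 to 0.21, limma adjusted p = 0.177), and without the 5-year-old Shiba Inu it was -2.33. The log2 ratio of the first to the second DLA88 probe set was 3.58 ± 4.57 in glaucoma and -2.28 ± 0.94 in healthy retinas (SD, n = 5 each, exact permutation p = 0.0397 after adjustment over 15 pairs), a call lost without any retina other than Beagle 4 (adjusted p up to 0.0794). With a retina left out, the smallest p that this test allows is also larger.

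A further pair of probe sets is annotated with both symbols, DLA-64 and DLA88, and so lies outside the rule. Of these, Cfa.280.1.S1_s_at gave 13.72, 13.28, 13.50, 13.73 and 13.98 in glaucoma and 12.30, 12.42, 12.61, 11.84 and 12.01 in healthy retinas, without overlap and with a difference of 1.41 ± 0.17 (SE, limma adjusted p = 0.000392). The other, Cfa.280.1.S2_at, gave 6.76, 8.05, 9.03, 8.50 and 10.46 against 8.27, 8.78, 8.78, 7.27 and 7.76, with overlap and a difference of 0.39 ± 0.58 (SE, limma adjusted p = 0.685). Of the 5 probe sets that the annotation assigns to these heavy chain genes, 3 thus separated the groups and the others varied more among glaucomatous dogs than between the groups.

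**Figure D2:**
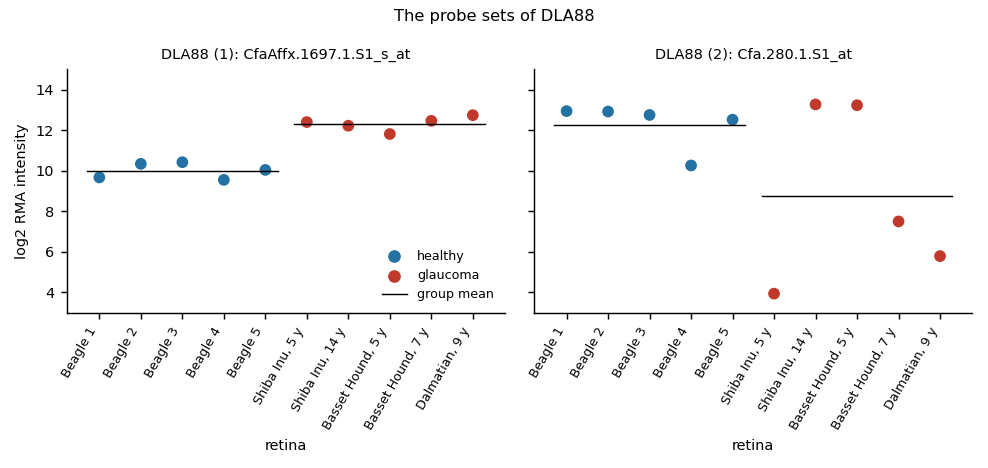
Log2 RMA intensity (y axis) of the 2 DLA88 probe sets in each retina (x axis), healthy in blue and glaucoma in red, with the group means as black lines. The first set separates the groups, whereas the second is at 13.23 to 13.27 in a pair of glaucomatous dogs and at 3.94 to 7.50 in the other 3.

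B2M encodes the light chain shared by all classical class I molecules. Its probe set Cfa.3873.2.S1_at gave 13.62, 13.20, 13.34, 13.46 and 13.70 in glaucoma and 12.70, 12.97, 12.58, 12.37 and 12.29 in healthy retinas, and the groups did not overlap. The difference was 0.88 ± 0.15 (SE), a 1.84-fold higher mean (95% interval 0.55 to 1.21, limma adjusted p = 0.00285). CfaAffx.21053.1.S1_s_at, the other B2M probe set, gave 13.39, 12.67, 12.95, 13.08 and 13.47 against 11.84, 12.29, 12.05, 11.63 and 11.61, with a difference of 1.23 ± 0.18 (SE, limma adjusted p = 0.00129). In both the 14-year-old Shiba Inu was the lowest glaucomatous dog and the Dalmatian the highest. In glaucoma the log2 ratio of the first to the second probe set was lower by 0.35 (exact permutation p = 0.0238 after adjustment over 15 pairs), so the size of the B2M difference depended on the probe set.

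TAP1 and TAP2 encode the subunits of the peptide transporter of the endoplasmic reticulum. The TAP1 probe set Cfa.3155.1.S1_at gave 10.29, 9.09, 9.39, 9.87 and 10.77 in glaucoma and 8.48, 8.25, 8.05, 8.42 and 8.06 in healthy retinas. No value overlapped, and the SD was 0.68 in glaucoma against 0.20 in the healthy group. The difference was 1.63 ± 0.28 (SE), a 3.09-fold higher mean (95% interval 1.01 to 2.24, limma adjusted p = 0.00299).

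The other TAP1 probe sets were also higher, CfaAffx.2177.1.S1_s_at by 1.38 ± 0.30 (SE, limma adjusted p = 0.0105) and Cfa.17385.1.S1_s_at by 0.75 ± 0.17 (SE, limma adjusted p = 0.0117). In the last one the 5-year-old Basset Hound, at 6.87, was barely above the highest healthy retina, at 6.83. No healthy retina exceeded the minimum for Cfa.17385.1.S1_s_at, so its difference follows in part from the filter. Both of these other TAP1 probe sets lost their call with the 3' to 5' ratio of 1 control pair each as a covariate (adjusted p = 0.13 and 0.144). Cfa.17385.1.S1_s_at also lost it with age as a covariate (adjusted p = 0.0847).

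The 3 probe sets of TAP2 did not differ beyond the spread between dogs. Cfa.9572.1.A1_at gave 10.34, 9.64, 10.02, 10.17 and 10.39 in glaucoma and 10.14, 10.11, 10.27, 10.10 and 10.06 in healthy retinas, so that healthy dogs lay within the range of the glaucomatous ones. The differences were -0.02 (95% interval -0.33 to 0.29, adjusted p = 0.926), 0.17 for CfaAffx.2162.1.S1_s_at (-0.10 to 0.44, adjusted p = 0.366) and 0.01 for CfaAffx.2163.1.S1_at (-0.32 to 0.34, adjusted p = 0.964), all by limma. These intervals exclude a difference of the size measured for the TAP1 probe set Cfa.3155.1.S1_at. Relative to Cfa.9572.1.A1_at, that TAP1 probe set had a log2 ratio that was -0.23 ± 0.41 in glaucoma and -1.88 ± 0.24 in healthy retinas (SD, n = 5 each), a difference of 1.65 with all 5 glaucomatous dogs above all healthy dogs (exact permutation p = 0.0238 after adjustment over 15 pairs). The unadjusted p of 0.0079 is the smallest that 5 against 5 retinas allow.

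TAPBP encodes tapasin, which holds the empty class I molecule at the transporter. Cfa.21518.1.S1_s_at gave 8.36, 7.51, 7.50, 7.88 and 8.24 in glaucoma and 7.10, 7.11, 7.36, 7.13 and 7.14 in healthy retinas. The groups were separated, with Beagle 3 closest to the glaucomatous range. Its difference was 0.73 ± 0.18 (SE, limma adjusted p = 0.0164), and CfaAffx.2360.1.S1_at, where all healthy retinas lay between 6.35 and 6.42 and the glaucomatous ones between 6.66 and 7.37, differed by 0.59 ± 0.13 (SE, limma adjusted p = 0.013). Neither passed with the 3' to 5' ratio of 1 control pair each as a covariate (adjusted p = 0.187 and 0.152), and the latter did not pass with age as a covariate (adjusted p = 0.0612). For CfaAffx.2360.1.S1_at no healthy retina exceeded the minimum, so its difference follows in part from the filter. The TAP1 difference exceeded that of TAPBP by 0.90 (exact permutation p = 0.0238 after adjustment over 15 pairs, larger in 5 of 5 glaucomatous dogs than in any healthy dog).

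PSMB8 and PSMB9 encode catalytic subunits that replace constitutive ones in the immunoproteasome, the form that favours peptides fit for class I molecules. The PSMB8 probe set Cfa.12298.1.A1_a_at gave 8.96, 8.09, 8.72, 9.00 and 9.89 in glaucoma and 7.37, 7.13, 7.38, 7.28 and 7.02 in healthy retinas. No value overlapped, and the Dalmatian was the highest. The difference was 1.70 ± 0.26 (SE), a 3.24-fold higher mean (95% interval 1.11 to 2.28, limma adjusted p = 0.00169). CfaAffx.2164.1.S1_at, the other PSMB8 probe set, differed by 1.37 ± 0.30 (SE, limma adjusted p = 0.0111), with the 14-year-old Shiba Inu, at 7.35, next to the highest healthy retina, at 7.28. This one lost its call with the 3' to 5' ratio of 1 control pair each as a covariate (adjusted p = 0.127).

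PSMB9, measured by Cfa.14371.1.S1_s_at, gave 10.41, 8.77, 9.24, 9.46 and 10.82 in glaucoma and 8.85, 8.95, 9.08, 8.39 and 8.29 in healthy retinas. All glaucomatous dogs except the 14-year-old Shiba Inu were above every healthy dog, and that dog lay inside the healthy range. The difference of 1.02 ± 0.36 (SE, 95% interval 0.23 to 1.81) did not pass (limma adjusted p = 0.0742), and without the 14-year-old Shiba Inu it was 1.27 (adjusted p = 0.0251). In glaucoma the log2 ratio of PSMB8 to PSMB9 was higher by 0.67 (exact permutation p = 0.0397 after adjustment over 15 pairs). That call held without the 5-year-old Shiba Inu and was lost without any other single retina (adjusted p up to 0.0794). Leaving out a retina also raises the smallest p that the exact test allows.

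PSMB5 encodes the constitutive subunit that PSMB8 replaces. It gave 12.11, 12.01, 11.96, 12.14 and 11.91 in glaucoma and 12.21, 12.14, 11.99, 12.33 and 12.08 in healthy retinas, with a difference of -0.12 ± 0.10 (SE, limma adjusted p = 0.413). The log2 ratio of PSMB8 to PSMB5 was -3.10 ± 0.68 in glaucoma and -4.91 ± 0.19 in healthy retinas (SD, n = 5 each), higher by 1.82 in glaucoma (exact permutation p = 0.0238 after adjustment over 15 pairs).

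ERAP1 encodes the aminopeptidase that trims peptides inside the endoplasmic reticulum. CfaAffx.12553.1.S1_s_at gave 8.59, 8.08, 7.94, 8.21 and 8.25 in glaucoma and 7.09, 7.39, 7.61, 7.15 and 7.59 in healthy retinas. The groups did not overlap and had the same SD of 0.24 (n = 5 each). The difference was 0.85 ± 0.15 (SE), a 1.80-fold higher mean (95% interval 0.52 to 1.18, limma adjusted p = 0.00361). The other ERAP1 probe set, Cfa.21049.1.S1_s_at, stayed under the minimum in every retina, at 6.22 to 6.57 in glaucoma and 6.05 to 6.32 in healthy retinas, and was not tested.

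NLRC5, the regulator that drives class I transcription, was measured by a pair of dim probe sets. CfaAffx.14140.1.S1_s_at gave 6.28, 6.33, 6.33, 6.69 and 6.65 in glaucoma and 6.18, 5.92, 6.27, 6.01 and 6.10 in healthy retinas, all under the minimum of the filter. The groups just failed to overlap, by 6.28 against 6.27, and the difference of mean log2 intensity was 0.36. CfaAffx.14151.1.S1_s_at lay at 5.14 to 5.55 in glaucoma and 5.11 to 5.60 in healthy retinas. In a fit without the filter neither passed (limma adjusted p = 0.0706 and 0.907).

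**Figure D3:**
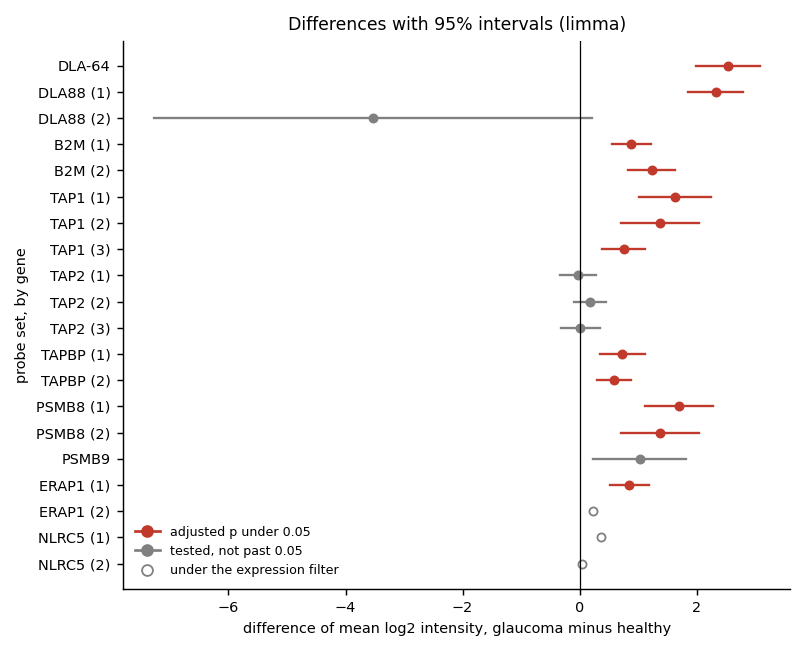
Difference of mean log2 intensity, glaucoma minus healthy (x axis), of each member probe set, with the limma 95% interval. Red sets passed an adjusted p of 0.05, grey sets were tested and did not, and open circles lay under the expression filter. The TAP2 intervals span 0 and end below 0.45, while those of DLA-64 and the first DLA88 set start above 1.85.

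As a description, the log2 ratio of DLA-64 to the B2M probe set Cfa.3873.2.S1_at was -4.75 ± 0.59 in glaucoma and -6.40 ± 0.29 in healthy retinas (SD, n = 5 each). This pair was among the 15 over which the p-values of the other pairs were adjusted. Its own p is not given, because DLA-64 met the filter only through the glaucoma group. The healthy values of DLA-64, at 5.94 to 6.52, lay under the minimum.

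The dogs of the glaucoma group differed in how far the members departed from the healthy mean. For this, each of the 9 genes with a tested probe set was taken by its brightest tested one. NLRC5 and the second DLA88 probe set, among others, were thus left out. The median departure over these 9 probe sets was 2.11 in the Dalmatian and 1.69 in the 5-year-old Shiba Inu. It was 0.88, 0.76 and 0.71 in the 7-year-old Basset Hound, the 5-year-old Basset Hound and the 14-year-old Shiba Inu. The healthy dogs lay between -0.21 and 0.19. Of the 12 higher probe sets, the Dalmatian had the highest value in 9 and the 5-year-old Shiba Inu in 3, while the 14-year-old Shiba Inu and the 5-year-old Basset Hound had the lowest glaucomatous value in 6 each. With 5 dogs and the breeds unevenly represented, no relation to age or breed was tested.

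**Figure D4:**
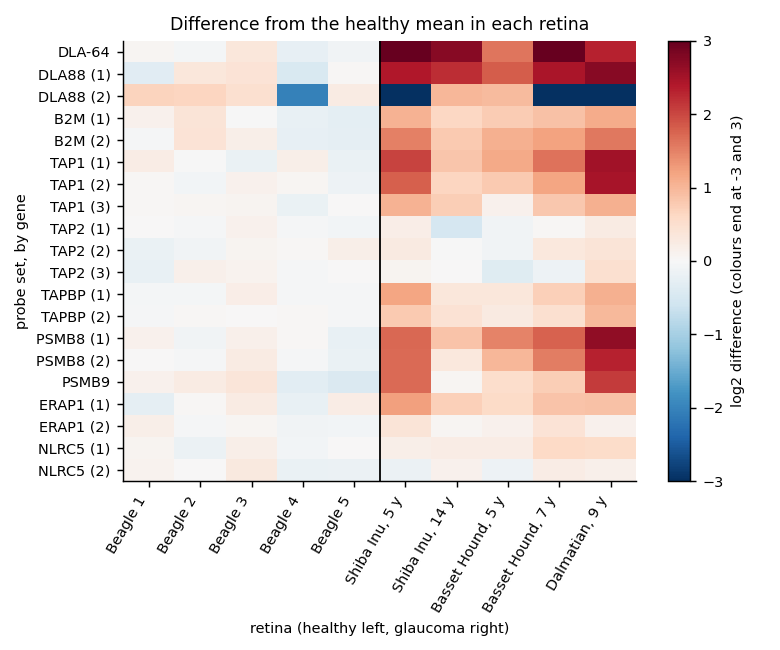
Log2 difference from the healthy mean of each member probe set (rows) in each retina (columns, healthy left of the line), red for higher and blue for lower, with colours ending at 3 and -3. The Dalmatian and the 5-year-old Shiba Inu are the darkest red columns, the TAP2 rows are pale throughout, and the second DLA88 row is dark blue in 3 glaucomatous dogs.

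In the RefSeq order of genes of the UU_Cfam_GSD assembly, 7 of the members lie on a single chromosome, and TAP2, PSMB8, TAP1 and PSMB9 follow each other without another gene between them. Within this row PSMB8 and TAP1 were higher in glaucoma, PSMB9 did not pass and TAP2 showed differences of -0.02 to 0.17. ERAP1 and NLRC5 lie elsewhere, and B2M was not matched.

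Beyond the members, 94 genes of the class I pathway were listed by role, 76 were on the array with a single symbol and 61 were tested, each by its brightest probe set. Of these, 12 were higher in glaucoma and none was lower, against 8.04% of all 7900 tested genes that were higher. Among relatives of the heavy chains 2 of 3 tested genes were higher. The class I gene DLA-79 gave 9.33, 10.50, 10.45, 10.34 and 10.25 in glaucoma and 9.01, 9.12, 8.21, 7.82 and 7.55 in healthy retinas, a difference of 1.83 ± 0.33 (SE, limma adjusted p = 0.00415). Its lowest glaucomatous retina was the 5-year-old Shiba Inu, which was lowest at none of the 12 higher member probe sets. FCGRT, which encodes the heavy chain of the neonatal Fc receptor and pairs with B2M, was higher by 1.24 ± 0.18 (SE, limma adjusted p = 0.00105). AZGP1, a class I-like secreted protein, differed by 0.04 (limma adjusted p = 0.944).

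In the loading and assembly list 4 of 13 tested genes were higher. SEC61A1 and SEC61B, subunits of the channel of the endoplasmic reticulum, differed by 0.83 and 0.34, HSPA5, a chaperone, by 0.46 and P4HB, a disulfide isomerase, by 0.32 (limma adjusted p = 0.00565, 0.032, 0.00793 and 0.0452). These 4 act on secretory proteins at large, as do PDIA3, an oxidoreductase, and the lectin chaperones CALR and CANX, which also serve class I loading. The differences of the latter were 0.42 for PDIA3 (adjusted p = 0.156), 0.08 for CALR (adjusted p = 0.848) and -0.16 for CANX (adjusted p = 0.336). TAPBPL, a relative of tapasin that edits class I peptides, exceeded the minimum in 1 retina and was not tested. It gave 7.00, 6.71, 6.64, 6.62 and 7.44 in glaucoma and 6.41, 6.15, 6.33, 6.22 and 6.27 in healthy retinas, without overlap, and its difference of 0.61 passed in the fit without the filter (limma adjusted p = 0.0293).

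None of the 5 tested subunits of the immunoproteasome and of proteasome activators passed, and none of the 13 tested subunits of the constitutive core did. PSMB10, the remaining catalytic subunit of the immunoproteasome, differed by 0.83 (limma adjusted p = 0.0574), with all glaucomatous retinas, at 7.45 to 8.94, above all healthy ones, at 6.96 to 7.34. PSME1 and PSME2, the activator subunits that interferon induces, differed by 0.31 (adjusted p = 0.117) and 0.47 (adjusted p = 0.0575). Over the constitutive core the median difference was -0.08 and the largest was that of PSMA5, at -0.26 (adjusted p = 0.0903). Of 6 tested cytosolic peptidases none passed, LAP3 having the largest difference, 0.69 (adjusted p = 0.171).

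Of 14 tested transcription regulators 3 were higher. IRF7 and IRF9, factors of the interferon response, differed by 0.998 ± 0.21 and 0.78 ± 0.14 (SE, limma adjusted p = 0.00963 and 0.00373), and every glaucomatous retina was above every healthy one for both. CREB1, which binds class I promoters among many others, differed by 0.50 (adjusted p = 0.0379), with the 14-year-old Shiba Inu inside the healthy range. IRF1, at 0.64, did not pass (adjusted p = 0.0646), nor did RFX5, RFXANK and RFXAP, the DNA-binding partners of NLRC5, with differences of -0.13 to 0.35. Of 7 tested receptors and kinases 3 were higher, TNFRSF1A, a TNF receptor, by 1.17 ± 0.22, IFNGR2, a chain of the interferon gamma receptor, by 0.73 ± 0.21 and JAK2, its kinase, by 0.45 ± 0.13 (SE, limma adjusted p = 0.00517, 0.0378 and 0.0418). TNFRSF1B differed by 0.25 (adjusted p = 0.232). IRF7, CREB1 and TNFRSF1A were tested only through the glaucoma group, as no healthy retina exceeded the minimum, so their differences follow in part from the filter. The class I receptors of lymphocytes that were on the array, CD8A, CD8B, CD160 and KLRD1, were under the minimum in every retina.

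The calls of P4HB, SEC61B, CREB1, IFNGR2 and JAK2 were the least firm, and each was lost without any of 7 to 9 of the 10 retinas in turn (highest adjusted p 0.0781 to 0.11), while the other 7 genes kept their calls whichever retina was left out. Of those 7, IRF7 lost its call with age as a covariate (adjusted p = 0.0508), and IRF7, SEC61A1 and TNFRSF1A lost theirs with the 3' to 5' ratio of 1 control pair each as a covariate (adjusted p = 0.0901, 0.068 and 0.0641). The number of higher pathway genes was 7 without the Dalmatian and likewise without Beagle 2, 4 or 5, and it was 4 with the 3' to 5' ratio of 1 control pair each as a covariate.

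**Figure D5:**
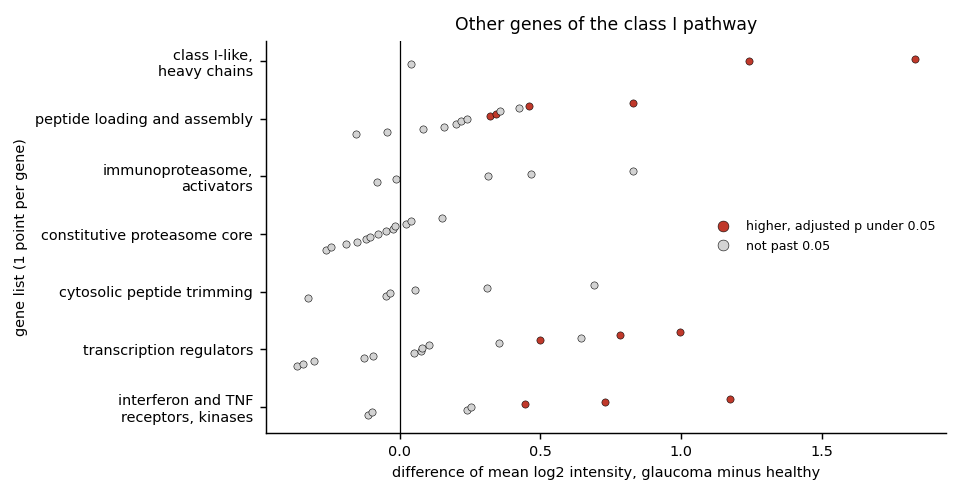
Difference of mean log2 intensity, glaucoma minus healthy (x axis), of the 61 tested genes of the pathway lists, 1 point per gene and 1 row per list, red where the adjusted p was under 0.05. Red points lie in 4 of the 7 lists with a tested gene, all to the right of 0, and the constitutive proteasome core lies between -0.26 and 0.15.

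The genes nearest in profile over the 10 retinas to the members' median, over the 9 probe sets taken above, were sought among 7891 other genes. The measure was the mean absolute distance between log2 differences from the healthy mean. They were TAGLN2 at 0.115, S100A4 at 0.128, TNFRSF14 and AIF1 at 0.142 and MX2 at 0.146, where the median over genes was 0.715 and the first percentile 0.248. AIF1 is a marker of microglia and macrophages and MX2 is an interferon-induced gene. AIF1 gave 9.39, 8.07, 8.13, 8.22 and 9.30 in glaucoma and 7.48, 7.43, 7.21, 7.14 and 7.13 in healthy retinas. The 5-year-old Shiba Inu and the Dalmatian were highest as for the members, a likeness that follows from selecting AIF1 by profile. For TAGLN2 and MX2 no healthy retina exceeded the minimum, so they were tested only through the glaucoma group.

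Of 12 tested markers of microglia and macrophages 11 were higher in glaucoma, and each of these separated the groups. CSF1R, the receptor for the growth factor of these cells, gave 9.74, 9.14, 8.74, 9.64 and 10.94 in glaucoma and 6.10, 6.25, 6.66, 6.63 and 6.27 in healthy retinas (difference 3.26 ± 0.34, SE, limma adjusted p = 0.000166). No healthy retina exceeded the minimum for CSF1R, CD68, CD163 or CYBB. These markers were tested only through the glaucoma group, so their differences follow in part from the filter. P2RY12, a marker of resting microglia, differed by -0.37 (adjusted p = 0.516). The summed intensity of the 15 markers on the array was 8629 to 20305 in glaucoma and 2177 to 3227 in healthy retinas, highest in the 5-year-old Shiba Inu and next in the Dalmatian, and ITGAM, PTPRC and FCER1G were under the minimum in every retina. In RNA of whole tissue, more cells of a type and more RNA per cell cannot be told apart, and the part of microglia in the class I differences was not tested.

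Lymphocyte markers were near the lower end of detection. Of 16 T and NK cell markers on the array 11 were under the minimum in every retina, CD3D, CD3G, CD8A and CD8B among them, and 2 of 4 tested, CD2 at 0.74 and CD3E at 0.43, were higher (limma adjusted p = 0.00578 and 0.0357). Their summed intensity was 1007 to 1637 in glaucoma and 880 to 1074 in healthy retinas, highest in the Dalmatian. For B and plasma cells 5 of 6 markers were under the minimum in every retina and JCHAIN was lower. One of 4 tested endothelial markers, FLT1 at 0.66, was higher (adjusted p = 0.0146), and of 8 Müller cell and astrocyte markers GFAP at 2.46 and AQP4 at 1.81 were higher (adjusted p = 0.00228 and 0.00149). No healthy retina exceeded the minimum for CD2, CD3E, GFAP or AQP4. They were tested only through the glaucoma group, so their differences follow in part from the filter. None of 7 tested markers of the pigment epithelium and none of 9 of photoreceptors passed. The part of these cells in the class I differences was not tested.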

How the data were processed

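Retinal RNA of 5 glaucomatous and 5 healthy dogs was measured with 1 array per dog, grouped by the disease state in the labels. The deposited values are intensities on a linear scale that the authors obtained by RMA normalization, and log2 was taken here. The 111 array controls were left out, and testing was limited to probe sets that exceeded a log2 of 7 in at least 2 samples, which is how the authors defined expressed. Genes were named from the array annotation, which gives 1 symbol to 29254 probe sets, several to 439 and none to 13231. The comparison of the groups was a linear model with moderated variances (limma 3.58.1, R 4.3.3). The p-values were adjusted by Benjamini-Hochberg over all 18416 tested probe sets, and a call needed an adjusted p under 0.05 without a minimum fold. The methods' SAM was not run, and their rank sum test was an alternative. Log2 ratios of 15 pairs of probe sets were compared with two-sided exact permutation tests (SciPy 1.17.1). The text names all member probe sets, the pathway genes that passed, in each list the one with the largest difference that did not, the 5 nearest profiles and cell type markers; CALR, CANX, PSME1, PSME2, RFX5, RFXANK, RFXAP and TAPBPL were added after their values were seen. Members, lists and the rule were chosen with earlier results of these data known. Arrays have no read depth, and their number limits the precision. Age as a covariate used the labels' ages. The fit was tested on simulated data. Promoter sequences were not analysed here.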

Additional observations from a re-analysis of the deposited data

Results flagged for a closer look

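In 64 groups of 5 retinas, 1 for each group and each member probe set or named pathway gene that was checked, 5 held a retina whose gap to its nearest neighbour was over 0.71 of the group's range, and chance gives about 1 in 20. At the DLA88 probe set Cfa.280.1.S1_at, healthy retina 4 was at 10.26 and the other healthy retinas at 12.52 to 12.94, a gap of 0.844 of the range. At the TAPBP probe set Cfa.21518.1.S1_s_at, healthy retina 3 was at 7.36 and the others at 7.10 to 7.14 (0.842 of the range). DLA-79 was 9.33 in the 5-year-old Shiba Inu and 10.25 to 10.50 in the other glaucomatous retinas (0.788). IRF7 was 6.23 in healthy retina 5 and 6.57 to 6.68 in the others (0.762), and IRF9 was 9.08 in healthy retina 1 and 8.68 to 8.75 in the others (0.824).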

How the results depend on the processing

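Of 389 values of the 20 member probe sets under the alternatives, 355 kept their direction and side of the threshold. The 3 probe sets that were not tested entered only the fit without the filter. They did not pass there and are counted as kept. Adjusted p-values of the exact rank sum test could not go below 0.0534, so it called 0 member probe sets, 0 higher, 0 lower and 0 pathway genes, where its unadjusted p was under 0.05 for 12 member probe sets, 2171 higher and 2669 lower probe sets and 18 higher and 2 lower pathway genes. A minimum of 2-fold left 7 member probe sets, 544 higher, 574 lower and 3 pathway genes. The 3' to 5' ratio of 1 control pair each, an alternative chosen after seeing the data, left 7, 408, 522 and 4, and made TAP2 -0.031 (CfaAffx.2162.1.S1_s_at) and -0.211 (CfaAffx.2163.1.S1_at). Array weights gave 2095 higher and 2811 lower probe sets, and age 886 lower. Leaving out each retina gave 866 (without healthy retina 2) to 1606 higher, 1111 (without healthy retina 2) to 2127 lower and 7 to 14 pathway genes, with 919 higher without the Dalmatian, and 11 to 13 member probe sets. The numbers of the replicates did not pair the dogs, since same-numbered dogs had correlations of deviations of -0.24 to 0.07, and with the replicate number as a block 12 member probe sets, 943 higher, 1114 lower and 7 pathway genes were called, HSPA5 not among them (adjusted p = 0.0611). TAP2 differences changed sign around 0. CfaAffx.2163.1.S1_at was -0.027 with the 3' to 5' ratio of 4 pairs, -0.098 with age, -0.116 with array weights, -0.015 without the Shiba Inus and -0.10 to 0.11 with a retina left out. Cfa.9572.1.A1_at was 0.19 with age, 0.016 after quantile normalization, 0.058 without the Shiba Inus and -0.093 to 0.093 with a retina left out, and the log2 ratio of these TAP2 probe sets differed by 0.073 without the Shiba Inus and by -0.107 to 0.082 with a retina left out. Without the Basset Hounds the log2 ratio differed by 0.46 for PSMB8 to PSMB9 and by 1.81 for TAP1 to TAP2. It differed by 1.88 for PSMB8 to PSMB5 and by 0.93 for TAP1 to TAPBP. Without the Shiba Inus these ratios differed, in the same order, by 0.85, 1.70, 2.11 and 1.05. None of these passed the test, as 3 against 5 retinas allow no exact p under 0.0357 before adjustment. As a description, the ratio of DLA-64 to B2M differed by 1.76 without the Basset Hounds and by 1.39 without the Shiba Inus. The ratio of PSMB8 to PSMB9 differed by 0.59 to 0.83 with a retina left out. The cause of the other changes was not tested.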
